A study of Rattus norvegicus with 7 samples.

Results

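The 10 genes described here were measured in the rat meibomian gland, the lipid-secreting gland of the eyelid. They were chosen by name for their place in mast cells and in histamine signalling: Hdc, Hnmt, Hrh1, Kit, Cpa3, Tpsb2, Tpsab1, Cma1, Ms4a2 and Fcer1a. All 10 were present among the 17246 genes with values. The animals were wild-type female Sprague-Dawley rats aged 3 months. In the UVB group (3 libraries) the shaved upper eyelids received ultraviolet B light at 300 mJ/cm2 for 5 min each day on 5 days. The control group (4 libraries) is labelled as having had no treatment. Whether the controls were shaved, and how long after the last exposure the glands were taken, are not stated in the labels. The comparison asked how gene expression in the gland differed between irradiated and non-irradiated rats.

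Mast cells are resident immune cells that sit around vessels, nerves and glands of skin, eyelid and conjunctiva. They depend on the receptor tyrosine kinase KIT for survival, bind IgE through the high-affinity IgE receptor, and store histamine with tryptases, chymase and carboxypeptidase A3 in granules that they release when triggered. Histamine is made from histidine by histidine decarboxylase, the product of Hdc, and this enzyme is not limited to mast cells: basophils, macrophages, neutrophils and some epithelial cells can also express it. Histamine is inactivated by methylation through histamine N-methyltransferase (Hnmt) or by oxidation through diamine oxidase (Aoc1), and it acts on receptors such as histamine receptor H1 (Hrh1).

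Every one of the 7 gland libraries held transcripts of the mast cell granule proteases, at low levels beside the genes of the lipid-secreting cells. After UVB, Hdc rose by a factor of 21.2 (log2 fold change 4.41, or 3.36 without UVB a), the tryptase gene Tpsab1 by 3.3 and the carboxypeptidase gene Cpa3 by 2.12. The call of Cpa3 did not hold when control b, control c or UVB c was left out. Values of the other tryptase gene Tpsb2, the chymase gene Cma1, Kit, the IgE receptor gene Ms4a2 and Hrh1 did not pass the test. Hnmt and Fcer1a were too low to be tested. Of the 8 genes tested, 3 were called higher and 0 lower in edgeR's quasi-likelihood test (adjusted p under 0.05), against 13.0% of the 13709 genes tested called in either direction and 6.30% called higher. In 4 of the 8, every UVB library lay above every control, against 12.8% of all genes tested. The median log2 fold change of the 8 was 0.758, beside -0.0058 over all genes tested. A gene needed at least 0.429 CPM (library counts scaled to a common total) in 3 libraries to be tested, on plain library totals before TMM scaling, where 0.429 CPM is 10 counts in the library of median size. Hdc and Ms4a2 reached that level in 2 controls and all 3 UVB libraries, and Hrh1 in 1 control and 2 UVB libraries, so these 3 would not have been tested on the controls alone, and the counts and median above lend them no support. In whole tissue, a change in the number of cells of a type and a change in RNA per cell cannot be told apart.

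The sequences just upstream of the transcription starts are shown for the 3 genes that rose and for Tpsb2, the neighbour and paralog of Tpsab1, which did not pass the test. They are the 250 bases before the start in RefSeq's GRCr8 assembly, on the gene's own strand. Capitals mark matches to the motif words searched. Hdc is read from the minus strand at chr3:134318705-134318954, Cpa3 from the minus strand at chr2:104673238-104673487, Tpsab1 from the minus strand at chr10:14867303-14867552, and Tpsb2 from the plus strand at chr10:14886060-14886309.
Hdc: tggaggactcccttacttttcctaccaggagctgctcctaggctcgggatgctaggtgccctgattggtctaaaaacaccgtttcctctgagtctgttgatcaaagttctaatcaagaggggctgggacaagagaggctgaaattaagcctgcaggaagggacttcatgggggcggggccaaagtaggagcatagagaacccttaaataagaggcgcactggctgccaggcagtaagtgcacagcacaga
Cpa3: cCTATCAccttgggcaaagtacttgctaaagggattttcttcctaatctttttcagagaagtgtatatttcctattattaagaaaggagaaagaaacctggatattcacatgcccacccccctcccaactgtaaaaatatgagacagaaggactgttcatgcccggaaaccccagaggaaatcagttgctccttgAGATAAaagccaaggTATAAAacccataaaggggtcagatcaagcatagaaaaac
Tpsab1: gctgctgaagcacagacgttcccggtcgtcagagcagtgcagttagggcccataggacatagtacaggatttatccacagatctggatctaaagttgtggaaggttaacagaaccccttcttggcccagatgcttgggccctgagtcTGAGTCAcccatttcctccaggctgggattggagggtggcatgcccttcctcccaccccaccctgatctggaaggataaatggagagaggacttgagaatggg
Tpsb2: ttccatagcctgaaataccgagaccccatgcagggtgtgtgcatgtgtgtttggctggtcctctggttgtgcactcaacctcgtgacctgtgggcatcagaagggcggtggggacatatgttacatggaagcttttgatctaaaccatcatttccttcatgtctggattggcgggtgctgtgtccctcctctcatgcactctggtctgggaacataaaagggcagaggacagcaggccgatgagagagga
Words bound by GATA factors were searched as AGATAA, with AGATAG, then TGATAA, and lastly TGATAG. The factor AP-1 was searched as TGANTCA. Words bound by MITF were searched as TCATGTG or else as TCACGTG. These were searched on both strands, and the TATA box was searched as TATAAA on the gene's own strand. No word searched overlapped another in the genes described. Cpa3 held GATA words at 249 bases (CTATCA) and 55 bases (AGATAA) before the start and TATAAA at 40 bases before it. Tpsab1 held 1 AP-1 word, TGAGTCA, at 103 bases before the start. The windows of Hdc and Tpsb2 held no match to any of these words. Among the 9 of the 10 genes with a promoter entry, 4 held a GATA word (Hrh1, Cpa3, Cma1 and Fcer1a), 1 an AP-1 word, 1 an MITF word (Fcer1a) and 2 TATAAA (Cpa3 and Fcer1a). Over all 33469 promoters of the same length these shares were 27.0%, 6.34%, 5.78% and 8.06%. A match here is a run of letters and says nothing about binding.

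Library totals ranged from 21058541 to 28784941 counts in the controls and from 20680237 to 26651170 after UVB. Nothing in the labels says whether each library came from 1 animal, so p-values measure the spread between these libraries. At this depth the limit that a count of 0 allows (3 counts, counting error only) lay between 0.1035 and 0.1422 CPM. All 70 counts of the 10 genes were whole numbers. Of 7 genes of lipid-secreting gland cells, 7 were expressed, led by Scd, a fatty acid desaturase, with a mean of 27690 TPM (transcript abundance corrected for length) in controls, and 2 of the 7 were called lower. Of 5 basal keratinocyte genes, 4 had values and 2 of these were called higher. Over all genes tested, 13.0% were called in either direction and 6.30% were called higher.

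Hdc stood at the edge of detection in untreated glands and was measurable in every irradiated one. The counts were 6, 11, 9 and 10 in controls a, b, c and d, and 353, 79 and 126 in UVB a, b and c. These are 0.2801, 0.5134, 0.3105 and 0.4273 CPM in the controls and 16.73, 3.058 and 4.854 CPM after UVB. The lowest UVB library was 5.96 times the highest control, so the groups were far apart, but the UVB libraries themselves spanned a factor of 5.47. UVB a alone held 67.9% of the summed CPM of the UVB group. The group means were 0.383 ± 0.108 CPM (SD, n = 4) and 8.21 ± 7.43 CPM (SD, n = 3). The fitted log2 fold change was 4.41 (SE 0.666, 95% interval 2.87 to 5.94, edgeR adjusted p = 0.00791), and all 3 UVB libraries lay above all 4 controls. Without UVB a the log2 fold change was 3.36 (edgeR adjusted p = 0.00237) and the UVB mean was 3.956 CPM. Ranked by fold change, Hdc was gene number 6 of all genes tested, and ranked by p it was number 303. Expressed per transcript length, Hdc stood at 0.21 to 0.37 TPM in controls and 2.23 to 12.35 TPM after UVB.

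**Figure D1:**
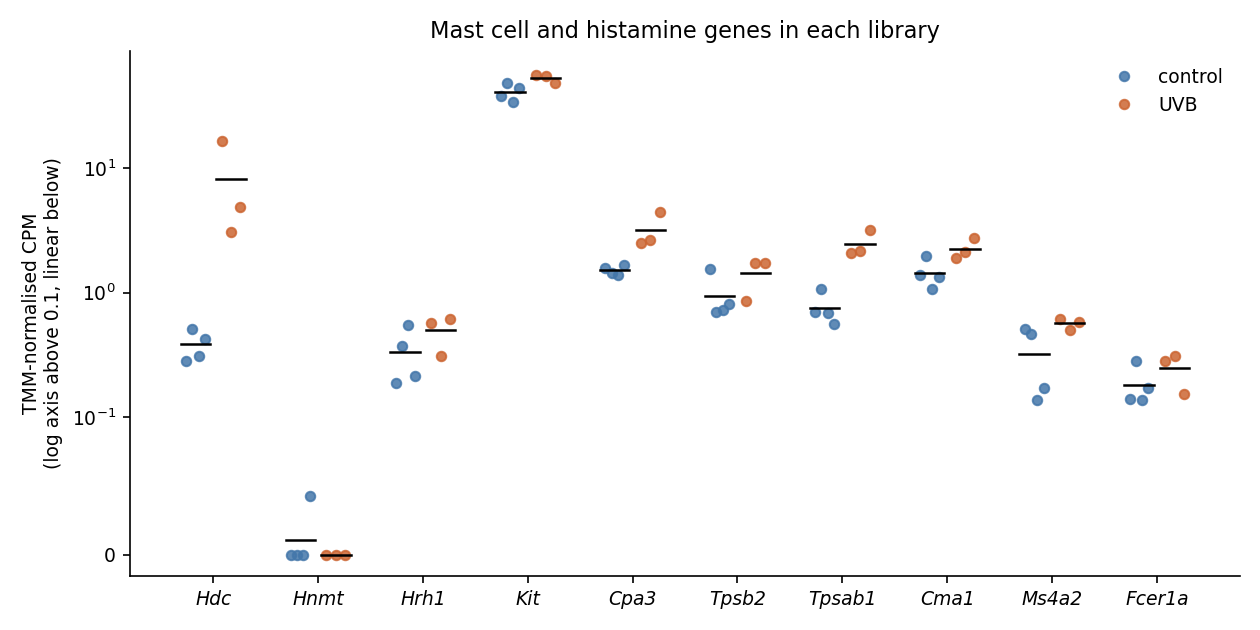
CPM (vertical, log axis above 0.1 and linear below) of each of the 10 genes in each library, with controls left and UVB right of each name and bars at the group means. The 3 Hdc points after UVB, at 3.058 to 16.73 CPM, stand apart from all controls, whereas the points of Tpsb2, Cma1 and Ms4a2 overlap between groups and Hnmt lies at or near 0.

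The granule proteases are the transcripts most specific to mast cells among the genes described. Cpa3, which encodes the carboxypeptidase that trims peptides in the granule, had 1.587, 1.447, 1.38 and 1.667 CPM in controls a to d and 2.512, 2.671 and 4.469 CPM in UVB a to c. The groups did not overlap, and UVB c was the highest library. Its log2 fold change was 1.09 (SE 0.246, 95% interval 0.53 to 1.64, edgeR adjusted p = 0.0223). Leaving out control b ended the call (1.06, edgeR adjusted p = 0.0524), as did leaving out control c (1.04, 0.0652) or UVB c (0.77, 0.0635).

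Tpsab1, a tryptase gene, had 15, 23, 20 and 13 counts in the controls and 44, 56 and 83 after UVB, or 0.7002, 1.074, 0.6899 and 0.5556 CPM against 2.086, 2.168 and 3.198 CPM. The groups did not overlap, and UVB c was again the highest. The log2 fold change was 1.72 (SE 0.288, 95% interval 1.08 to 2.37, edgeR adjusted p = 0.0077), with 3 of 3 UVB libraries above every control. Tpsb2, the other tryptase gene, had 1.54, 0.7001, 0.7244 and 0.812 CPM in the controls and 0.8532, 1.742 and 1.734 CPM after UVB. Control a was high and UVB a low for Tpsb2, so the groups overlapped, and the log2 fold change of 0.63 (SE 0.37, 95% interval -0.20 to 1.46) did not pass the test (edgeR adjusted p = 0.284). The 2 tryptase genes lie next to each other on chromosome 10 and are similar in sequence, so the split of reads between them depends on the authors' counting and each value is uncertain to that extent. The ratio of Tpsab1 to Tpsb2 in TPM ran from 0.389 to 1.31 in the controls and from 1.07 to 2.09 after UVB, and these ranges overlap.

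Cma1, the chymase gene, had 1.4, 1.96, 1.069 and 1.325 CPM in the controls and 1.896, 2.129 and 2.774 CPM after UVB. Control b exceeded UVB a, so the groups overlapped. The log2 fold change was 0.67 (SE 0.26, 95% interval 0.08 to 1.25, edgeR adjusted p = 0.123). On the TPM scale, which allows levels of different genes to be compared, the chymase gene was the highest of the 4 protease genes in the controls (2.793 TPM on average), followed by Cpa3 (1.93), Tpsb2 (1.64) and Tpsab1 (1.125). The steps from Cpa3 to Tpsb2 and from Tpsb2 to Tpsab1 in the controls lay within the SD of Tpsb2 (0.677 TPM). After UVB the order was Cma1 (4.423), Cpa3 (4.083), Tpsab1 (3.727) and Tpsb2 (2.52). The SDs after UVB, 0.867 to 1.31 TPM, exceed the gaps between Cma1, Cpa3 and Tpsab1.

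**Figure D2:**
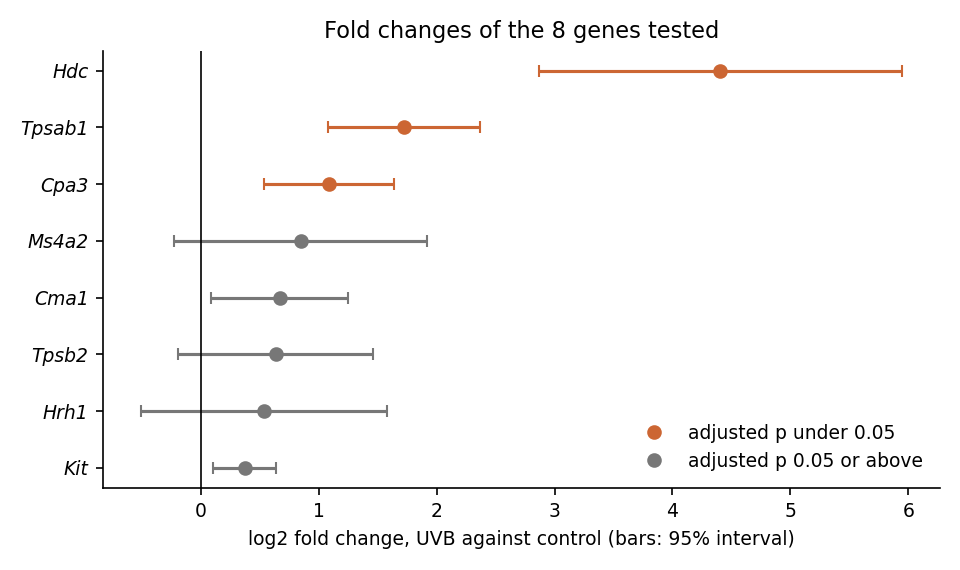
Log2 fold change of UVB against control (horizontal) with its 95% interval for the 8 genes tested, coloured by whether the edgeR adjusted p was under 0.05. Hdc lies farthest from 0 at 4.41 and has the widest interval, and Kit lies nearest to 0 at 0.37 with the narrowest.

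Hdc and the protease genes moved by unequal amounts within the same libraries. The 4 protease genes together summed to 8.32, 8.48, 6.22 and 6.93 TPM in controls a to d and to 11.74, 13.62 and 18.9 TPM in UVB a to c. UVB a had the lowest protease sum of the UVB libraries and the highest Hdc level. Hdc amounted to 0.0252 to 0.0462 TPM per TPM of protease transcript in the controls, and to 1.05, 0.164 and 0.19 in UVB a, b and c. Per library, log2 CPM of Hdc minus that of Cpa3 averaged -1.81 ± 0.349 over the 4 controls (SD, n = 4) and 1.0 ± 1.47 over the UVB libraries (SD, n = 3), a difference of 2.81. Against Cma1 the difference was 3.17 and against Tpsb2 it was 3.23. Each of the 3 differences gave p = 0.0286 in a two-sided exact permutation test (0.0286 after Benjamini-Hochberg adjustment over the 3). That is the smallest value that the 35 splits of 4 and 3 libraries allow. All 3 differences share Hdc, whose UVB libraries already lay far above every control. The p-values therefore largely restate that separation and are not 3 separate pieces of support. Without UVB a the differences were 1.96, 2.35 and 2.21. Tpsab1, the protease gene that rose most, was not among the 3 genes of this test. Added after the data were seen and given with no test, its difference from Hdc was 2.18, or 1.38 without UVB a. As a description over the 7 libraries, which share normalisation factors, correlations were taken after removing the group means. They were -0.313 between Hdc and Cpa3, -0.0715 between Hdc and Tpsab1, -0.0892 between Hdc and Cma1 and -0.773 between Hdc and Tpsb2. Hdc gave 0.405 with Kit, 0.345 with Hrh1 and 0.147 with Ms4a2. The 6 pairs among the 4 protease genes ran from 0.0762 (Tpsb2 and Tpsab1) to 0.841 (Tpsab1 and Cma1). UVB a lay far above the other UVB libraries for Hdc, and control a above the other controls for Tpsb2. The weight of these single libraries in the correlations was not tested.

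**Figure D3:**
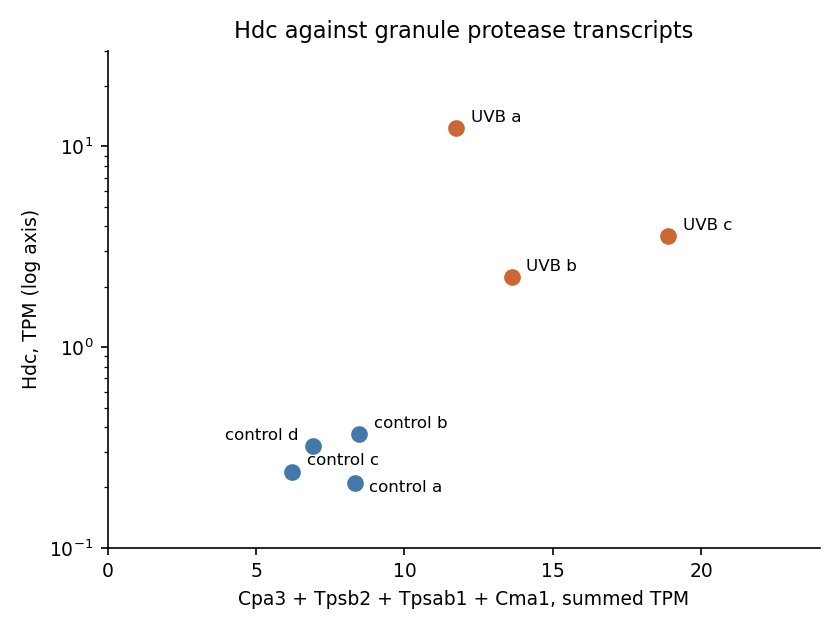
Hdc in TPM (vertical, log axis) against the summed TPM of Cpa3, Tpsb2, Tpsab1 and Cma1 (horizontal), 1 point per library. The controls lie at 6.22 to 8.48 TPM of protease and 0.21 to 0.37 TPM of Hdc, and UVB a, with the highest Hdc level, lies left of UVB b and UVB c.

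Transcripts of other cells that can express Hdc were also measured, and some were higher in the same UVB libraries. Their counts of calls stand beside the 13.0% of all genes tested that were called. Of 11 neutrophil and granulocyte genes, 10 had values, 4 were tested and 3 were called higher. Their summed level was 251.3 to 274.8 CPM in controls and 295.5 to 372.7 CPM after UVB, carried by S100a8 and S100a9, which keratinocytes also express. Csf3r, the receptor for granulocyte colony-stimulating factor, had a log2 fold change of 3.16 (edgeR adjusted p = 0.00608). Mmp9 was also called higher (log2 fold change 2.77, edgeR adjusted p = 0.00498). The granule gene Elane was at 0 in every library, and Camp, Ngp and Ltf averaged at most 0.27 TPM in either group. The granule gene Mpo, too low to be tested, had 0, 0, 3 and 0 counts in the controls and 6, 1 and 15 after UVB, with the groups overlapping. Of 12 monocyte and macrophage genes, 11 had values and were tested, and 5 were called higher and 0 lower. The summed level was 156.7 to 408.2 CPM in controls and 198.3 to 332.6 CPM after UVB. Lyz2 weighed most in this sum, with 248.3 CPM in control b, the library with the highest sum. It had 63.46 to 103.2 CPM in the other controls and 53.81 to 83.34 CPM after UVB. The scavenger receptor gene Cd163 was at 0.93, 0.93, 1.46 and 0.56 TPM in the controls and 13.48, 5.54 and 14.58 TPM after UVB (log2 fold change 3.50, edgeR adjusted p = 0.00402). Also called higher were C1qb (log2 fold change 1.29), C1qc (0.93), Mrc1 (1.75) and Cd14 (0.89). Of these 11 genes, 8 had log2 fold changes above 0. The general macrophage genes Lyz2 (-0.77, edgeR adjusted p = 0.359), Cd68 (-0.41, 0.186) and Csf1r (-0.01, 0.985) lay below 0 and did not pass. Of 7 T cell genes, 6 had values and 5 were tested, and of these 2 (Cd2 and Cd8a) were called higher and 3 (Cd3e, Cd3g and Cd5) had log2 fold changes below 0 that did not pass, for a median of -0.27, with sums of 3.688 to 4.957 CPM and 3.871 to 6.935 CPM. Of 5 basophil genes, 3 had values and the 1 tested, Il3ra, did not pass (log2 fold change -0.08, edgeR adjusted p = 0.783). The basophil protease gene Mcpt8 was not analysed here. Sums of the 3 were 5.0 to 6.348 CPM in controls and 4.645 to 6.446 CPM after UVB. The part of these cells in the rise of Hdc was not tested.

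Kit, the receptor for stem cell factor, was the most abundant of the 10 genes. It had 38.32, 48.73, 34.19 and 44.66 CPM in the controls and 56.74, 55.32 and 48.85 CPM after UVB. All UVB libraries lay above all controls, but UVB c exceeded control b by a small margin. The log2 fold change was 0.37 (SE 0.118, 95% interval 0.11 to 0.64, edgeR adjusted p = 0.0693), so Kit did not pass. It passed with DESeq2 (0.38, DESeq2 adjusted p = 0.032) and without control b (0.46, edgeR adjusted p = 0.0376). Kit is also expressed by melanocytes and some epithelial cells, and its mean of 17.83 TPM in controls was several times that of Cpa3, Tpsb2, Tpsab1 or Cma1. Of 7 melanocyte genes, 6 had values and were tested, and 3 (Mlana, Tyr and Mitf) were called lower and 0 higher. Over all genes tested, 13.0% were called in either direction. The sum of the 6 was 114.8 to 203.7 CPM in controls and 87.93 to 98.98 CPM after UVB. The share of Kit transcripts that came from mast cells was not tested.

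The high-affinity IgE receptor genes were at the edge of detection. Ms4a2, the beta chain, had 11, 10, 4 and 4 counts in the controls and 13, 13 and 15 after UVB. The controls split into a higher and a lower pair. Of the higher pair, control a (0.5135 CPM) overlapped the UVB libraries, the lowest of which was UVB b at 0.5032 CPM. Control b (0.4667 CPM) lay below every UVB library. The log2 fold change was 0.85 (SE 0.478, 95% interval -0.22 to 1.92, edgeR adjusted p = 0.267). Fcer1a, the alpha chain that binds IgE, had 3, 6, 4 and 4 counts in the controls and 6, 8 and 4 after UVB, too few to be tested, with the groups overlapping. A difference in Fcer1a was not detectable at this depth (two-sided exact permutation test of CPM, p = 0.229). Fcer1g, the gamma chain shared with other Fc receptors, averaged 19.04 TPM in controls and 25.95 TPM after UVB. In CPM, the means were closer, at 14.82 and 16.19 (log2 fold change 0.13, SE 0.22, edgeR adjusted p = 0.741). Its TPM ran from 10.18 to 34.51 within the controls. The counts of Fcer1g were not whole in any library, so its values depend on how shared reads were assigned.

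Of 12 genes that carry the signal from the IgE receptor inside the cell, 12 were tested, 1 was called lower and 0 higher, with a median log2 fold change of 0.288. Over all genes tested 13.0% were called, as for the lists that follow. The gene called lower was Gab2, an adaptor protein used by the IgE receptor and by KIT. Its level was 42.29, 41.12, 44.26 and 40.47 CPM in the controls and 27.82, 22.57 and 31.48 CPM after UVB, with no overlap (log2 fold change -0.62, SE 0.105, edgeR adjusted p = 0.00786). The kinase genes Lyn (-0.28, edgeR adjusted p = 0.386), Syk (0.20, 0.379) and Fyn (-0.47, 0.158) did not pass. Of the 12 genes, 9 had log2 fold changes above 0, and Gab2, Lyn and Fyn lay below it. Among the 9, Lcp2 (0.51, edgeR adjusted p = 0.128) and Plcg1 (0.27, 0.0745) did not pass. All UVB libraries lay above all controls for Lcp2 and below all controls for Fyn. These genes are used by many cell types besides mast cells.

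Of 24 further genes linked to mast cells, 15 had values, 11 were tested, 3 were called higher and 0 lower, with a median log2 fold change of 0.191. Csf2rb, the shared beta chain of the receptors for interleukin 3, interleukin 5 and GM-CSF, had 2.007, 4.481, 3.45 and 4.744 CPM in the controls and 15.64, 9.561 and 10.06 CPM after UVB (log2 fold change 1.67, SE 0.286, edgeR adjusted p = 0.00965). Like Hdc, it was highest in UVB a. Il1rl1, the receptor for interleukin 33, had 0.5601, 0.6068, 0.483 and 0.4701 CPM in the controls and 1.327, 1.084 and 1.233 CPM after UVB (1.19, SE 0.261, edgeR adjusted p = 0.0199). Srgn, which encodes the proteoglycan core that holds proteases and histamine in granules and is also made by other blood cells, had 3.174, 3.501, 3.933 and 4.53 CPM in the controls and 7.821, 4.839 and 8.399 CPM after UVB (0.89, SE 0.214, edgeR adjusted p = 0.0277). UVB b lay close to control d for Srgn, and both Il1rl1 and Srgn lost their calls when single libraries were left out. Il1rl1 lost it without control c, control d, UVB a or UVB c (edgeR adjusted p up to 0.0567), and Srgn without control b, control c, UVB a or UVB c (up to 0.0881). In RefSeq's GRCr8 annotation Srgn overlaps other genes, whose reads may be shared. Mcpt1l1, a mast cell protease gene from a family of close copies whose reads may be split between them, averaged 10.29 TPM in controls and 13.14 TPM after UVB, above any of the 4 protease genes described (log2 fold change 0.35, SE 0.176, edgeR adjusted p = 0.216). Gata2, a transcription factor of mast cells and their precursors, averaged 1.695 and 2.127 TPM (0.32, SE 0.199, edgeR adjusted p = 0.324). Of the 11 genes tested, 8 had log2 fold changes above 0. Rab27b (-0.26, edgeR adjusted p = 0.0801), Ltc4s (-0.45, 0.531) and Il18r1 (-0.59, 0.327) lay below 0 and did not pass. For Rab27b, every UVB library lay below every control.

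Of 8 genes for signals that act on mast cell growth and recruitment, 6 had values, 4 were tested and 1 was called higher, with a median log2 fold change of 0.244. Tgfb1, a growth factor made by many cell types, had 15.96, 18.02, 16.25 and 18.38 CPM in the controls and 23.79, 21.6 and 22.58 CPM after UVB (0.40, SE 0.0864, edgeR adjusted p = 0.0187). It lost its call without control c (0.38, edgeR adjusted p = 0.0584) and without UVB a (0.37, 0.0527). Kitlg, which encodes the KIT ligand stem cell factor, averaged 15.35 TPM in controls and 16.39 TPM after UVB (0.09, SE 0.0881, edgeR adjusted p = 0.55). Il33, an alarm signal of epithelial cells and the ligand of Il1rl1, averaged 16.89 TPM in controls and 12.58 TPM after UVB (-0.44, SE 0.157, edgeR adjusted p = 0.0994).

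On the side of histamine breakdown, both inactivating enzymes were listed at or near 0. Hnmt had 1 count in all, in control d. It is a widely expressed gene, and whether the authors' annotation or counting left out its reads was not tested, so the low count does not show that its transcript was absent. Aoc1 had 0 counts in every library. Both lay under the limit that a count of 0 allows in every library, so no comparison was made. Hnmt overlaps another annotated gene in GRCr8. Maob, which oxidises the methylated product, averaged 6.018 TPM in controls and 7.323 TPM after UVB (log2 fold change 0.27, SE 0.171, edgeR adjusted p = 0.319).

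Of 12 further genes of the histamine pathway, 11 had values, 6 were tested, 1 was called higher and 1 lower, with a median log2 fold change of 0.218. The 2 called were both low-affinity transporters that take up histamine and other amines, and they moved in opposite directions. Slc29a4 had 1.027, 0.8868, 0.9659 and 1.026 CPM in the controls and 2.844, 3.213 and 3.814 CPM after UVB, well apart (1.75, SE 0.203, edgeR adjusted p = 0.00234). Slc22a3 had 10.08, 8.215, 8.314 and 9.273 CPM in the controls and 6.399, 4.529 and 3.583 CPM after UVB, again without overlap (-0.90, SE 0.195, edgeR adjusted p = 0.0193). The Slc22a3 call was lost without control d (-0.88, edgeR adjusted p = 0.051) and without UVB b (-0.85, 0.06). Per transcript length, Slc22a3 averaged 4.245 TPM in controls and 2.307 TPM after UVB, and Slc29a4 averaged 0.595 and 2.007 TPM. Slc18a2, which loads histamine and other amines into granules, had 5.1, 2.82, 3.01 and 4.13 TPM in the controls and 3.91, 6.46 and 4.3 TPM after UVB, with the groups overlapping (0.38, SE 0.256, edgeR adjusted p = 0.36).

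Among the histamine receptors, Hrh3 was by far the most abundant. It had 33.34, 22.53, 25.49 and 25.29 TPM in the controls and 26.59, 39.79 and 24.66 TPM after UVB, with the groups overlapping (0.16, SE 0.204, edgeR adjusted p = 0.644). It is best known as a receptor on nerve endings that restrains transmitter release. Hrh1, which mediates itch and vessel leakage, had 4, 8, 16 and 5 counts in the controls and 12, 8 and 16 after UVB, or means of 0.405 ± 0.215 TPM (SD, n = 4) and 0.613 ± 0.212 TPM (SD, n = 3). The groups overlapped, with 2 of the 4 controls below every UVB library (log2 fold change 0.54, SE 0.465, 95% interval -0.51 to 1.58, edgeR adjusted p = 0.479). Hrh1 overlaps another annotated gene in GRCr8, and its reads may be shared with it. Hrh2, the receptor that drives gastric acid secretion, had 7, 3, 4 and 3 counts in the controls and 1, 1 and 3 after UVB and was too low to be tested. Hrh4, the receptor of blood cells, was detected in UVB b alone.

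**Figure D4:**
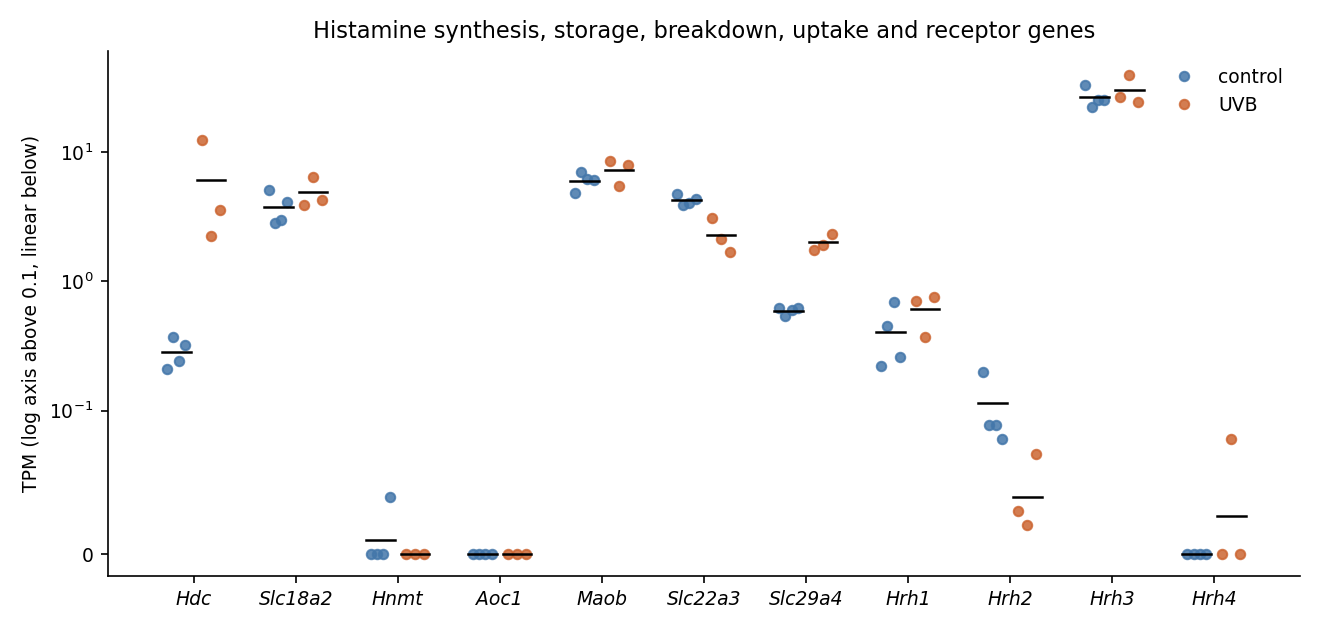
TPM (vertical, log axis above 0.1 and linear below) of 11 genes for making, storing, inactivating, taking up and sensing histamine in each library, with controls left and UVB right of each name and bars at the group means. Hdc and Slc29a4 lie higher and Slc22a3 lower after UVB without overlap, Aoc1 is at 0 throughout, and Hrh3 stands above the other receptor genes.

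The genes whose pattern over the 7 libraries was most like that of Hdc, out of 11966 with a mean count of at least 50, were Htra3 (Pearson r = 0.9971), Abhd1 (0.9960), Timp1 (0.9939), Ptgs2 (0.9938) and Chi3l1 (0.9928). These r values describe log2 CPM over 7 libraries that share normalisation and the group difference. Each of the 5 was highest in UVB a, as genes chosen for their likeness to Hdc would largely be. Timp1, an inhibitor of matrix metalloproteinases, had 5.135, 5.881, 4.588 and 5.085 CPM in the controls and 75.75, 26.55 and 38.72 CPM after UVB. Ptgs2, the inducible cyclooxygenase that makes prostaglandins, had 0.5601, 0.6534, 0.5175 and 0.6838 CPM in the controls and 8.769, 2.981 and 2.928 CPM after UVB. For both, UVB a stood well above the other 2 UVB libraries, as it did for Hdc. Htra3, a secreted serine protease, had 24.6 to 26.93 CPM in controls and 42.12 to 71.38 CPM after UVB. In GRCr8, Abhd1 overlaps Preb and Timp1 overlaps Syn1.

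The 5 genes most like Cpa3 were different ones: B4galnt3 (r = 0.9913), Cdv3 (0.9906), Klk8 (0.9893), Pla2g4f (0.9843) and Znrd1 (0.9838), and each was highest in UVB c, as Cpa3 was. That shared peak is largely a product of choosing them for their likeness to Cpa3. Klk8, a serine protease of keratinocytes, had 58.3, 58.72, 52.06 and 60.64 CPM in the controls and 76.55, 85.12 and 107.0 CPM after UVB. B4galnt3, a sugar transferase, had 5.313 to 7.094 CPM in controls and 11.26 to 20.54 CPM after UVB. Of these 5, Znrd1 did not pass the test (log2 fold change 0.19, SE 0.0863, edgeR adjusted p = 0.174) and Cdv3, which overlaps Topbp1 in GRCr8, changed little (0.20, SE 0.0553, edgeR adjusted p = 0.0464), a call lost in 10 of its alternatives. The other 3 granule protease genes had mean counts under 50 and were not ranked.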

How the data were processed

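RNA-seq was done on 4 control and 3 UVB meibomian gland libraries. Expected counts, which are estimated and not normalised, and TPM values were deposited by the authors as separate tables. The submitters' processing notes name FastQC, Trimmomatic, DRAGEN, Picard and the build rn7. Which annotation was used, whether strand was counted and the program versions are not given in the sources used here, so antisense overlaps cannot be resolved. Of the deposited expected counts, 12.5% were not whole. Sums of the deposited TPM values over these genes reached 82.0% to 84.1% of what a complete TPM table holds.

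Commas in gene names shifted 2280 rows, and values were therefore taken from the last 7 cells of a row. Incomplete rows (5 per table) were dropped, leaving 17246 genes. Column names give the group and no replicate number that the labels share. The 4 controls are therefore lettered a to d and the 3 UVB libraries a to c, in no order and with no pairing.

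Counts were rounded and tested over the whole table with edgeR 4.0.16 in R 4.3.3 (quasi-likelihood test, robust, TMM factors, filterByExpr by group). Two-sided p-values were adjusted by Benjamini-Hochberg over 13709 genes, and the threshold was 0.05. The test had been planned for raw counts, and rounding was added. CPM values are TMM-normalised, and log2 CPM used a prior count of 2. The alternatives tried included limma-voom (limma 3.58.1), DESeq2 1.42.0, other scalings and filters, limma on log2(TPM + 1) and log2(TPM + 0.1), and leaving out each library. The edgeR, DESeq2, limma-voom and TPM fits were checked on counts simulated with means and spreads taken from these data. The permutation tests were not part of that check.

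The genes described and the gene lists were chosen with earlier results of these data known. Named genes are the 10 genes, the called genes of 4 pathway lists (at most 6 each), and the 5 genes most correlated with Hdc and with Cpa3 among those with a mean count of at least 50. Marker genes outside this rule are named as examples of their lists, and further pathway genes for their role or direction. Of 110 listed symbols 91 had values, and 19 were not analysed here. Promoters come from RefSeq (GRCr8), which is not the authors' build; they were matched by symbol, for 9 of the 10 genes, and used for sequence alone.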

Additional observations from a re-analysis of the deposited data

Results flagged for a closer look

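In 2 of the 25 values checked in groups of 4 libraries, 1 library lay far from the others; chance alone flags about 1 in 20, or 1.25 of 25. Tpsb2 was at 1.54 CPM in control a and between 0.7001 and 0.812 CPM in the remaining 3 controls, so the gap made up 0.867 of the group's range. Control a was not the highest control for Tpsab1, Cma1 or Hdc. Chi3l1, among the genes most like Hdc, reached 15.87 CPM in control b while the remaining controls lay between 12.63 and 13.08 CPM, and this gap made up 0.861 of the range.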

How the results depend on the processing

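Among the results recomputed under alternatives (the 10 genes, the called pathway genes, the genes most like Hdc and Cpa3, and the counts), none changed sign; the other genes named were fitted once. Over the alternatives, the 8 tested genes of the 10 gave 129 results on the same side of the threshold, 2 that newly passed (Kit) and 3 that no longer passed (Cpa3). The log2 fold change of Hdc ran from 2.18 to 4.81, with adjusted p-values from 3.25e-13 to 0.0321, and it was called each time. That of Tpsab1 ran from 1.15 to 1.93 (adjusted p up to 0.0287). The number of the 10 genes called was 3, with 4 by DESeq2 and 2 when a mean count of at least 50 was required, which left Tpsab1 untested; leaving out single libraries it ran from 2 (without control c or UVB c) to 3. With that minimum, the other histamine pathway genes called numbered 1 instead of 2, because Slc29a4, with a mean count of 47.9, was not tested. With DESeq2, the IgE signalling genes called numbered 2 instead of 1. The cause of that last shift was not tested. Leaving out single libraries, the calls ranged from 1 to 2 of the histamine pathway genes, from 1 to 3 of the further mast cell genes, from 0 to 1 of the growth signal genes and from 1 to 2 of the IgE signalling genes. The differences between Hdc and Cpa3, Cma1 and Tpsb2 ranged from 1.96 to 3.25, 2.35 to 3.64 and 2.21 to 3.9. No paired analysis was possible because the table's columns carry no replicate number that matches the labels. Fcer1a, Ms4a2, Hrh1, Hrh2 and Hrh4 had at most 16 counts in any library, which limits what can be read from them.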
